A study of Mus musculus with 24 samples.

Results

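The genes described here are 10 known glucocorticoid target genes of muscle, *Sgk1*, *Fkbp5*, *Tsc22d3*, *Zbtb16*, *Cebpb*, *Cebpd*, *Klf15*, *Klf9*, *Mt1* and *Mt2*. They were found on the array by gene name, which gave 11 probes among 55681 non-control probes, and all 10 genes passed the filter on dim probes that left 9138 genes to test. The arrays came from *M. gastrocnemius*, a calf muscle, of fasted male C57BL/6JOlaHsd mice that were kept for 6 h in air with 20.9% O2 (Norm, 12 arrays) or 12% O2 (Hypox, 12 arrays), with 1 mouse on each array. The mice of both groups arrived at 10 weeks of age and had received a low-fat diet (10% of energy from fat) for 3 weeks and a high-fat diet (40%) for 6 weeks. Every array measured the muscle RNA in the Cy5 channel against pooled RNA of all the samples in Cy3, so a log2 ratio of 0 means the level of the pool. There were 6 slides, and each carried 2 arrays of either group.

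Glucocorticoids, in mice mainly corticosterone, enter muscle fibres and bind the glucocorticoid receptor, which moves to the nucleus and raises or lowers the transcription of its target genes. In muscle these hormones are known for shifting metabolism during fasting, toward protein breakdown and amino acid release. Among the 10 genes are a kinase (*Sgk1*), a feedback inhibitor of the receptor (*Fkbp5*), an anti-inflammatory protein also called GILZ (*Tsc22d3*), 5 transcription factors (*Zbtb16*, *Cebpb*, *Cebpd*, *Klf15* and *Klf9*) and a pair of metal-binding metallothioneins (*Mt1* and *Mt2*). Several of them also answer to other signals, the metallothioneins above all to zinc. The hormone itself was not measured in the files used here.

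Of the 10 genes, 3 were higher in Hypox at an unadjusted P-value under 0.05, *Sgk1*, *Mt1* and *Mt2*, and 0 were lower. Over all 9138 genes tested, 7.17% passed that threshold with a higher level in Hypox and 5.07% with a lower one. After Benjamini-Hochberg adjustment over all genes, limma called 1 of the 10 higher (*Sgk1*) and 0 lower, where 0.0875% of all genes were called higher and 0.252% lower. The median difference between Hypox and Norm was 0.27 on the log2 scale over the 10 genes, against 0.029 over all genes tested. The difference was positive for 8 of the 10 genes, and for 58.8% of all genes.

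**Figure D1:**
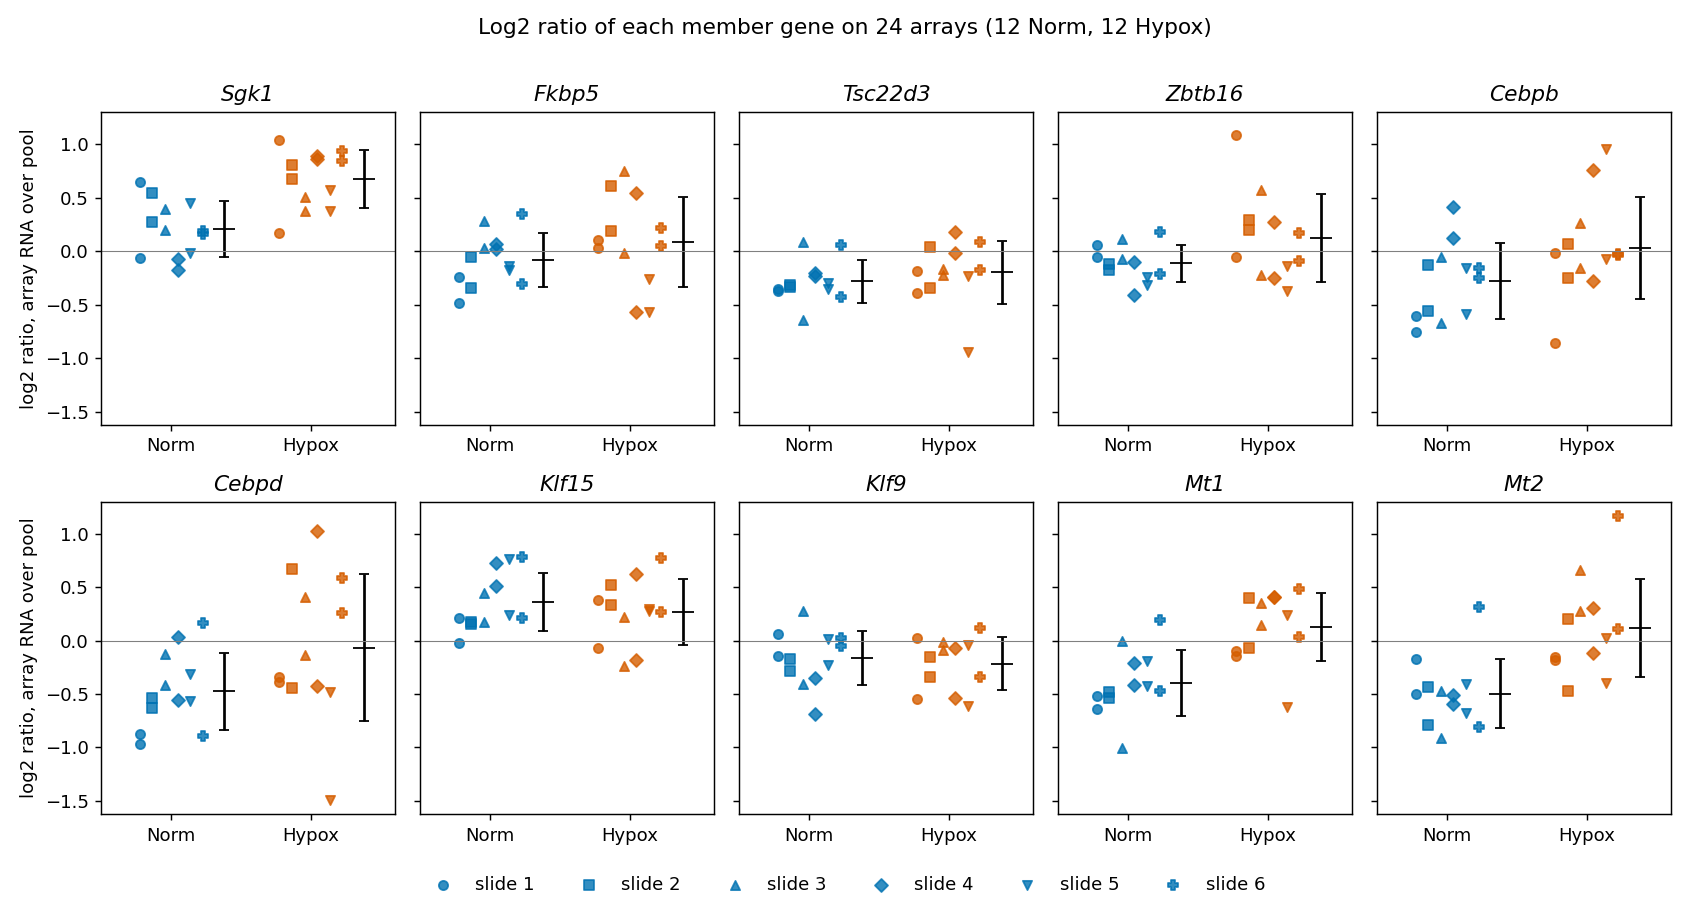
Log2 ratio of the muscle RNA over the pool for each of the 10 genes (y axis, log2 units), with 1 point for each of 12 Norm and 12 Hypox arrays, the marker shape giving the slide, and the mean ± SD beside the points. The Hypox points of *Sgk1*, *Mt1* and *Mt2* lie higher than the Norm points with some overlap, while those of *Tsc22d3*, *Klf15* and *Klf9* cover about the same range in both groups.

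*Sgk1* encodes serum- and glucocorticoid-regulated kinase, a relative of Akt that acts downstream of PI3K and mTORC2. The probe lies on chromosome 10 from 21719507 to 21719566 (mm9, forward strand), and its Cy5 signal averaged 59.7 times the local background. Norm arrays had log2 ratios of *Sgk1* from -0.18 to 0.65 (median 0.20), and Hypox arrays from 0.17 to 1.04 (median 0.74). Of the 12 Hypox arrays 7 lay above every Norm array, and 5 of the 12 Norm arrays lay below every Hypox array, so the groups overlapped only in part.

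The Norm mean of *Sgk1* was 0.21 ± 0.26 and the Hypox mean 0.67 ± 0.27 (log2 ratio, SD, n = 12 per group). The difference was 0.46 (standard error 0.11, 95% interval 0.24 to 0.68), or 1.38-fold, with a P-value of 0.000162 and an adjusted P-value of 0.0477 by limma. *Sgk1* ranked 31 of 9138 genes by P-value. The Hypox mean was the higher one on 6 of 6 slides, by 0.14 at the least and by 1.00 at the most. The adjusted value lay close to the threshold: with each array left out in turn the unadjusted P-value stayed between 3.32e-05 and 0.000400, but the adjusted one passed in 4 of 24 fits, those without Norm replicate 8, Norm replicate 11, Hypox replicate 2 or Hypox replicate 4. When probes were filtered on mean signal over mean background instead, the adjusted P-value of *Sgk1* was 0.0504.

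The window upstream of the fifth of 6 annotated *Sgk1* start sites is shown because it is the 1 member window that holds a full palindromic glucocorticoid element, the letters AGAACA, 3 bases and TGTTCT (in capitals). It is the 250 bases before the start, on the forward strand at chr10:21993640-21993889 (RefSeq, GRCm38.p6).
Sgk1: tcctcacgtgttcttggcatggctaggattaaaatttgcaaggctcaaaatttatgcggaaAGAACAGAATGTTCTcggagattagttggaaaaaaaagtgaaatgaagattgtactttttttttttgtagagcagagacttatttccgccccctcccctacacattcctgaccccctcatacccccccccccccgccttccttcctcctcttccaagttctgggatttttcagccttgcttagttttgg
Of 32851 annotated upstream windows of the same length, 3 (0.00913%) held that palindrome, searched on both strands. In the *Sgk1* window it spans bases -189 to -175 from the start. Its 2 arms also count as half-sites in the counts given for the half-site. A match of letters is a description of the sequence, and binding was not measured.

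*Mt1* and *Mt2* encode metallothioneins, small cysteine-rich proteins that bind zinc and copper and whose genes lie next to each other. The *Mt1* probe lies on chromosome 8 from 96704165 to 96704224 and the *Mt2* probe from 96697371 to 96697430 (mm9, forward strand). The longest run of bases the probes share is 7 of 60, and cross-hybridization was not tested. The Cy5 signal averaged 52.2 times the background for *Mt1* and 25.4 times for *Mt2*, and both were well above background on all 24 arrays.

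For *Mt1* the Norm arrays spanned log2 ratios of -1.01 to 0.19 around a median of -0.45, while the Hypox arrays spanned -0.62 to 0.48 around 0.19. Of the 12 Hypox arrays 6 lay above every Norm array, and 11 lay above the Norm median, the exception being Hypox replicate 2. The Norm mean was -0.39 ± 0.31 and the Hypox mean 0.13 ± 0.32 (SD, n = 12 per group), a difference of 0.52 (standard error 0.12), or 1.43-fold, with a P-value of 0.000220. The adjusted P-value of 0.0583 did not pass the threshold of 0.05. Without Hypox replicate 2 it was 0.0147, and that of *Mt2* was 0.0462. With each array left out in turn, the adjusted P-value of *Mt1* by limma was 0.0147 to 0.104 and passed in 4 of 24 fits. That of *Mt2* was 0.0203 to 0.133 and passed in 2 of 24. *Mt1* was higher in Hypox on 6 of 6 slides, by 0.12 to 0.75.

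Across Norm arrays *Mt2* lay between -0.91 and 0.31 on the log2 ratio scale (median -0.50), and across Hypox arrays between -0.48 and 1.17 (median 0.067). All 12 Hypox arrays lay above the Norm median, and 7 of 12 Norm arrays lay below every Hypox array. The other 5 Norm arrays lay within the Hypox range, and Norm replicate 12, the highest Norm array for both metallothioneins, lay above 10 of the 12 Hypox arrays. The Norm mean was -0.50 ± 0.33 and the Hypox mean 0.12 ± 0.46 (SD, n = 12 per group). The difference of 0.62 (standard error 0.15), or 1.53-fold, was the largest of the 10 genes, with a P-value of 0.000355 and an adjusted P-value of 0.0651. It was positive on 6 of 6 slides, from 0.17 to 1.16. A second *Mt1* probe, on chromosome 8 from 96703844 to 96703903, had a Cy5 signal of 1.23 times the background, was well above background on 0 of 24 arrays and was not used.

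**Figure D2:**
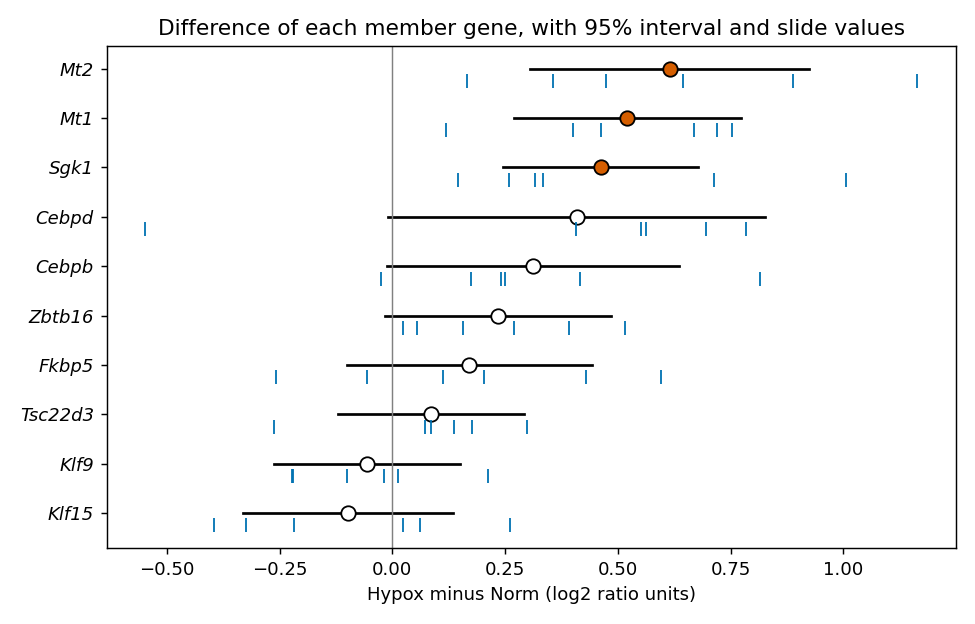
Difference between Hypox and Norm for each gene (x axis, log2 ratio units) with its 95% interval (black line), filled where the unadjusted P-value was under 0.05, and the difference on each of the 6 slides (blue ticks). The intervals of *Mt2*, *Mt1* and *Sgk1* lie above 0, and all their slide ticks are positive.

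The upstream windows of both metallothionein genes are shown for their metal response cores, the letters TGCACNC or TGCGCNC (in capitals, either strand), to which the zinc-sensing factor MTF1 is known to bind. They are the 250 bases before the start on the forward strand, at chr8:94178839-94179088 for *Mt1* and chr8:94172368-94172617 for *Mt2* (RefSeq, GRCm38.p6).
Mt1: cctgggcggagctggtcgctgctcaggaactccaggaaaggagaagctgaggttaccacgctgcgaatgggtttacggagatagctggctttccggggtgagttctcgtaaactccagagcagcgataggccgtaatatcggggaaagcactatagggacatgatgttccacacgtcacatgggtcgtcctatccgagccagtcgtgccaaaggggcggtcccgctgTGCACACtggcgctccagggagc
Mt2: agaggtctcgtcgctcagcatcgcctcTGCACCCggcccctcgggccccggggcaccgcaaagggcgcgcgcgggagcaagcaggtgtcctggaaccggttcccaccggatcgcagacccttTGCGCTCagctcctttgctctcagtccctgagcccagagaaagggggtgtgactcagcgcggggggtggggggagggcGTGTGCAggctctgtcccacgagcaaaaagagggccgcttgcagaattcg
The *Mt1* window holds 1 such core and the *Mt2* window 3, and 21.4% of all windows hold at least 1. These counts cover only the 250 bases before the annotated start, and cores beyond either end were not searched for. Neither window holds the glucocorticoid half-site AGAACA, which 16.1% of all windows do. RefSeq windows were at hand for 8 of the 10 genes, 15 windows in all, of which 4 held the half-site (3 of *Sgk1* and 1 of *Tsc22d3*) and 3 a metal response core (*Mt1*, *Mt2* and *Klf15*). The hypoxia response core, ACGTG or GCGTG, occurred in 9 of the 15 windows and in 38.6% of all windows.

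*Fkbp5* encodes FKBP51, a co-chaperone that lowers the receptor's affinity for hormone and is itself induced by glucocorticoids. Its probe lies on chromosome 17 from 28536060 to 28536119 (mm9, reverse strand). Norm arrays had log2 ratios of *Fkbp5* from -0.49 to 0.34 (median -0.095), and Hypox arrays from -0.57 to 0.75 (median 0.078). The Hypox arrays spread more widely, with 2 below and 3 above the whole Norm range. The mean difference was 0.17 (standard error 0.13, 95% interval -0.10 to 0.44, P-value = 0.209), positive on 4 of 6 slides.

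*Tsc22d3* encodes GILZ, which mediates part of the anti-inflammatory action of glucocorticoids. Its probe lies on chromosome X from 137074094 to 137074153 (mm9, reverse strand). For *Tsc22d3* the Norm arrays spanned log2 ratios of -0.65 to 0.091 around a median of -0.33, while the Hypox arrays spanned -0.95 to 0.18 around -0.18. The lowest value of all was that of Hypox replicate 2, and 10 of the other 11 Hypox arrays lay within the Norm range. The difference was 0.085 (standard error 0.10, 95% interval -0.12 to 0.29, P-value = 0.404).

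*Zbtb16* encodes PLZF, a transcriptional repressor. Its probe lies on chromosome 9 from 48462419 to 48462478 (mm9, reverse strand). Across Norm arrays *Zbtb16* lay between -0.41 and 0.18 on the log2 ratio scale (median -0.11), and across Hypox arrays between -0.37 and 1.09 (median 0.059). Of the 12 Hypox arrays 5 lay above every Norm array. The difference of 0.24 (standard error 0.12, 95% interval -0.015 to 0.49) was positive on 6 of 6 slides, from 0.024 to 0.52, but did not pass the test (P-value = 0.0645). It depended on single arrays: without Hypox replicate 12 it was 0.15 (P-value = 0.140), and with 1 array left out it passed in 5 of 24 fits, those without Norm replicate 12 or Hypox replicates 2, 3, 5 or 11. The P-value was 0.0495 with the replicate number as a block, though same-numbered arrays were not taken as pairs. It was 0.252 with the processed signals (difference 0.19).

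*Cebpb* and *Cebpd* encode C/EBP transcription factors of the stress and acute phase response. Their probes lie on chromosome 2 from 167515828 to 167515887 and on chromosome 16 from 15888459 to 15888518 (mm9, forward strand). Norm arrays had log2 ratios of *Cebpb* from -0.75 to 0.41 (median -0.20), and Hypox arrays from -0.86 to 0.95 (median -0.028). Its difference was 0.31 (standard error 0.16, 95% interval -0.013 to 0.64, P-value = 0.0590), positive on 5 of 6 slides. With slide as a block the P-value was 0.0351, and with 1 array left out it passed in 5 of 24 fits.

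For *Cebpd* the Norm arrays spanned log2 ratios of -0.96 to 0.17 around a median of -0.55, while the Hypox arrays spanned -1.49 to 1.02 around -0.24. Hypox held both the lowest array (replicate 2) and the highest (replicate 8), and its SD was 0.68 against 0.36 in Norm. Of the 12 Hypox arrays 5 lay above every Norm array and 11 above the Norm median. The difference was 0.41 (standard error 0.20, 95% interval -0.0090 to 0.83, P-value = 0.0548), positive on 5 of 6 slides. It depended on single arrays: without Hypox replicate 2 it was 0.54 (P-value = 0.00437), and without Hypox replicate 8 it was 0.31 (P-value = 0.118). It passed with the processed signals (0.51, P-value = 0.0416), the Cy5 channel alone (0.48, P-value = 0.0357) and slide as a block (P-value = 0.0358). With the replicate block, whose numbers were not taken as pairs, the P-value was 0.0279.

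*Klf15*, a Krüppel-like factor that drives amino acid breakdown, and *Klf9*, a relative that is induced by glucocorticoids in many tissues, had negative differences. Their probes lie on chromosome 6 from 90425144 to 90425203 and on chromosome 19 from 23240410 to 23240469 (mm9, forward strand). Across Norm arrays *Klf15* lay between -0.027 and 0.78 on the log2 ratio scale (median 0.23), and across Hypox arrays between -0.24 and 0.77 (median 0.28). The difference was -0.098 (standard error 0.11, 95% interval -0.33 to 0.13, P-value = 0.394), and 3 of 6 slides lay on each side of 0. *Klf15* had the dimmest probe in use, at 6.24 times the background, and its signal counted as well above background on 21 of the 24 arrays (10 Norm, 11 Hypox).

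Norm arrays had log2 ratios of *Klf9* from -0.68 to 0.27 (median -0.16), and Hypox arrays from -0.61 to 0.12 (median -0.12). The difference was -0.056 (standard error 0.10, 95% interval -0.26 to 0.15, P-value = 0.579), negative on 4 of 6 slides. With median centring in place of loess both differences were positive, 0.14 for *Klf15* and 0.34 for *Klf9*, where the median of all genes was itself at 0.25. On the authors' deposited values *Klf9* was also positive, at 0.15 (P-value = 0.583).

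All 7 skeletal muscle markers were tested and 0 passed the unadjusted threshold, and markers of other cell types differed between some arrays. The summed Cy5 signal of 7 lung genes, which muscle should lack, was 22.4 to 55.4 on Norm arrays and 25.9 to 1614 on Hypox arrays, and the highest sums were those of Hypox replicates 8 (1614), 9 (442), 7 (287) and 3 (109). Of the 7 lung genes 2 were not well above background on any array, and only 1, *Sftpc* (3.42 times the background), passed the filter on dim probes. Without these 4 arrays, a choice made after the data were seen, the same number of member genes, 3, passed the unadjusted threshold. *Sgk1* was then at 0.39 (P-value = 0.00373, adjusted P-value = 0.250) and *Mt1* at 0.44 (P-value = 0.00479, adjusted P-value = 0.266). *Mt2* was at 0.47 (P-value = 0.00413, adjusted P-value = 0.251) and *Cebpd* at 0.20 (P-value = 0.329). All 5 adipocyte markers tested had negative differences, 2 of them past the unadjusted threshold. Their summed signals were 243 to 22171 on Norm arrays and 367 to 14922 on Hypox arrays. These sums, like those of the lung genes, were not adjusted for the brightness of the arrays. The mean Cy5 signal of an array was lowest at 58.3 (Norm replicate 4) and highest at 1014 (Hypox replicate 9). The range of the adipocyte sums alone therefore does not show how far adipocyte content differed between arrays. The part of the adipocyte markers in the results was not tested. In whole muscle, fewer cells of a type and less RNA per cell cannot be told apart.

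How the 10 genes moved together was read within each group, so that the difference between Hypox and Norm played no part. Each of the 45 pairs was correlated over the 12 Norm and over the 12 Hypox arrays, 90 relations in all, with 2-sided permutation tests of 100000 resamples and Benjamini-Hochberg adjustment over the 90. The adjusted P-value passed for 3 pairs in Norm and 3 in Hypox. The median Pearson's r was 0.24 over the Norm pairs, with 28 of 45 positive. It was 0.35 over the Hypox pairs, with 38 of 45 positive. Pairs of other genes were not counted in the same way, so whether the members moved together more than other genes was not tested. With group means removed, a member's median size of r with all genes tested was 0.19 to 0.28 over the arrays of both groups. That size ignores the sign of r and spans both groups. The pair medians keep the sign and span 12 arrays each, so these values cannot be compared.

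*Fkbp5* and *Cebpd* were the 1 pair that passed in both groups. In Norm their Pearson's r was 0.78 (P-value = 0.00299, adjusted 0.0449, permutation) and Spearman's rho 0.85 (P-value = 0.000860, adjusted 0.0387). In Hypox r was 0.79 (P-value = 0.00218, adjusted 0.0392) and rho 0.74 (P-value = 0.00788, adjusted 0.0788). Without the 2 arrays farthest from the median of *Fkbp5*, r was 0.62 in Norm (P-value = 0.0566) and 0.72 in Hypox (P-value = 0.0162), and neither passed after adjustment. With slide means removed r was 0.64 in Norm and 0.86 in Hypox.

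The highest correlation was that of *Tsc22d3* with *Mt1* in Norm, with r = 0.91 (P-value = 0.000160, adjusted 0.0144, permutation) and rho = 0.79 (P-value = 0.00343, adjusted 0.0515). Without Norm replicates 7 and 12 it was 0.83 (P-value = 0.00789, adjusted 0.229). In Hypox the same pair had r = 0.80 (P-value = 0.00453, adjusted 0.0582) and rho = 0.64 (P-value = 0.0306, adjusted 0.172). There r was 0.43 without Hypox replicates 2 and 8, the arrays farthest from the median of *Tsc22d3*, and 0.51 to 0.87 with 1 array left out. Leaving out the ends of a range can lower r by itself, so the first value does not show on which arrays the correlation rested.

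In Hypox *Cebpd* also went with *Tsc22d3* (r = 0.82, P-value = 0.00136, adjusted 0.0392, permutation, rho = 0.71, P-value = 0.0117, adjusted 0.106) and with *Mt1* (r = 0.80, P-value = 0.00211, adjusted 0.0392, rho = 0.65, P-value = 0.0265, adjusted 0.172). Without Hypox replicates 2 and 8, r was 0.48 and 0.58, and neither passed after adjustment. In Hypox replicate 2, 6 of the 10 genes had their lowest Hypox value and *Cebpb* its highest.

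*Cebpb* and *Klf9* went in opposite directions in Norm, with r = -0.80 (P-value = 0.00181, adjusted 0.0392, permutation) and rho = -0.79 (P-value = 0.00339, adjusted 0.0515). Without Norm replicates 4 and 9 r was -0.78 (P-value = 0.0102, adjusted 0.229). In Hypox their r was 0.078 (P-value = 0.814) and rho 0.23, and the difference between the groups was not tested. The neighbours *Mt1* and *Mt2* had r = 0.69 in Norm (P-value = 0.0173, adjusted 0.141) and 0.65 in Hypox (P-value = 0.0247, adjusted 0.148), with rho of 0.50 and 0.76, so their correlation did not pass after adjustment. No pair with *Sgk1* passed in either group.

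**Figure D3:**
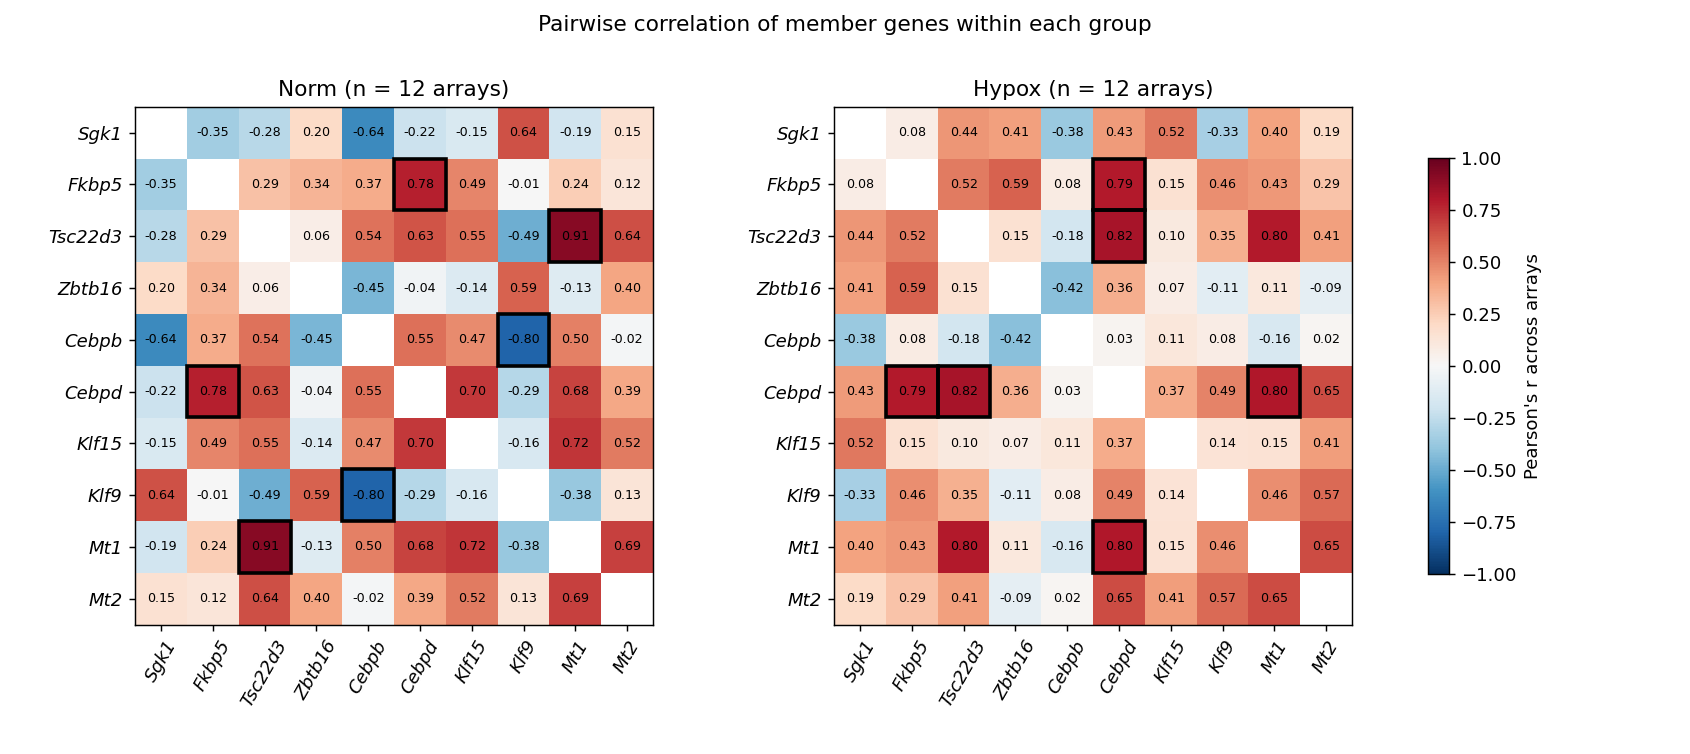
Pearson's r of each pair of the 10 genes across the 12 Norm arrays (left) and the 12 Hypox arrays (right), from blue (-1) to red (1), with black frames on the 6 pairs whose permutation P-value passed after adjustment over 90. *Fkbp5* with *Cebpd* is framed in both groups.

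**Figure D4:**
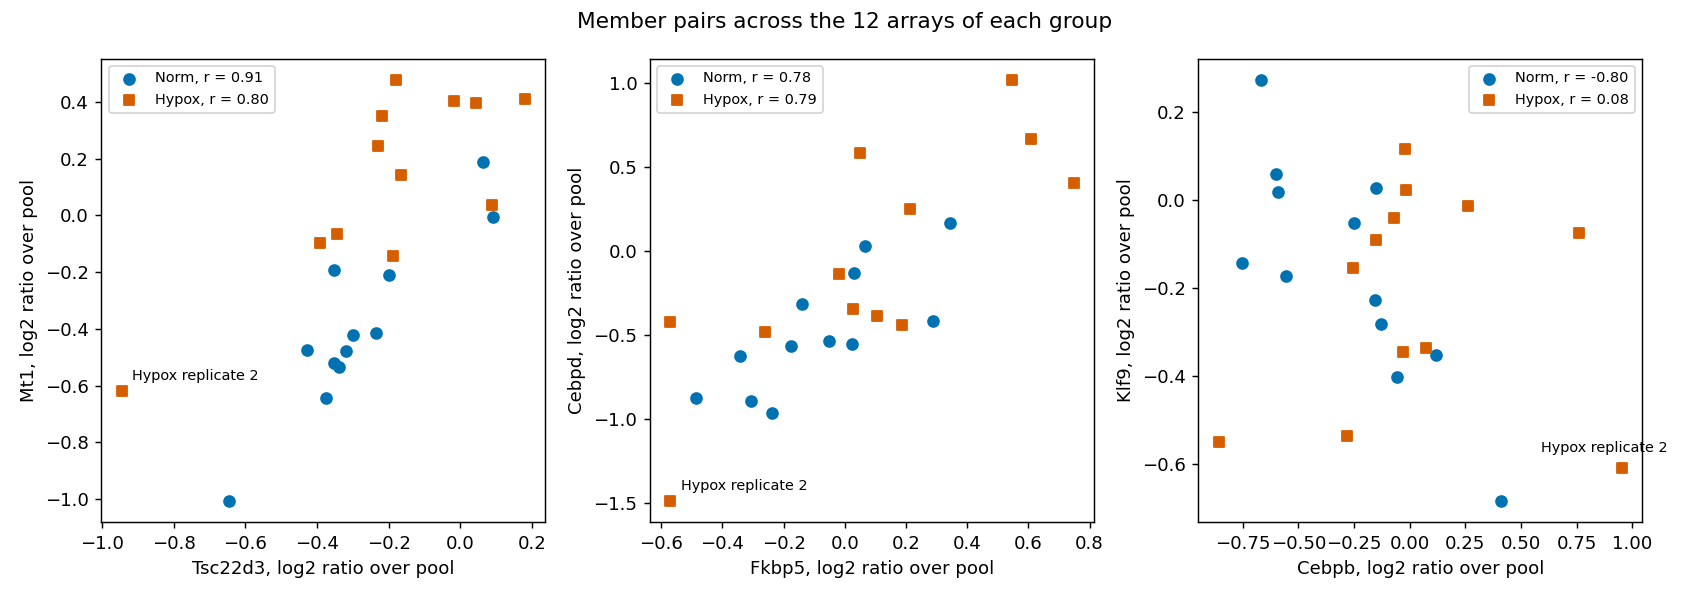
Log2 ratios of *Mt1* against *Tsc22d3*, *Cebpd* against *Fkbp5* and *Klf9* against *Cebpb* (log2 units on both axes), with 1 point for each of the 12 Norm (circles) and 12 Hypox (squares) arrays. Hypox replicate 2 lies at the low end of the first 2 panels, and in the last panel the Norm points fall (r = -0.80) while r is 0.078 over the Hypox points.

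The number of pairs past the test depended on the scaling of the arrays. With median centring 90 of 90 pairs passed, with the processed signals 26 did, with the Cy5 channel alone 1, with slide as a block 2, and with slide means removed within each group 0. The last test has 6 within-slide differences a group and gives no exact P-value under 0.0313, so a few pairs alone cannot pass the adjustment, and its count says little about the size of the correlations. With slide means removed r in Norm was 0.96 for *Tsc22d3* with *Mt1* (exact P-value = 0.281) and -0.81 for *Cebpb* with *Klf9* (exact P-value = 0.125). In Hypox it was 0.67 for *Tsc22d3* with *Cebpd* (exact P-value = 0.250) and 0.69 for *Cebpd* with *Mt1* (exact P-value = 0.0313).

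The genes whose pattern was most like that of each member, over the 24 arrays with group means removed, were often not members. For *Cebpd* they were *Ddit4* (r = 0.84), an mTORC1 inhibitor, *Glul* (0.83), glutamine synthetase, and *Txlnb* (0.82). The first pair of these are genes commonly cited as raised by glucocorticoids. For *Mt2* they were *Med10* (0.76), *Ccn2* (0.76) and again *Ddit4* (0.71). For *Mt1* they were *Gda* (0.88), guanine deaminase, *Tsc22d3* (0.83) and *Fkbp14* (0.83), and for *Tsc22d3* they were *Gda* (0.85), *Mt1* (0.83) and *Cables1* (0.83). For *Fkbp5* they were *Tgif1* (0.80), *Cebpd* (0.79) and *Mfap1b* (0.75).

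For *Sgk1* the highest were *Erh* (0.71), *Tsen54* (0.65) and *Med26* (0.64), the lowest set among the 10 genes. For *Zbtb16* they were *Serinc3* (0.79), *Pigo* (0.78) and *Il34* (0.78), and for *Cebpb* they were *Cep20* (0.92), *Sirt3* (0.89) and *Timm10* (0.88). For *Klf15* they were *Zfp68* (0.79), *Clk4* (0.78) and *2610001J05Rik* (0.75), and for *Klf9* *Pdlim5* (0.85), *Ncor1* (0.80), a nuclear receptor corepressor, and *Ube2r2* (0.77). The values compared share arrays and slides, and as the highest among all genes tested they lie above the median by selection. The median size of r with all genes tested was between 0.19 and 0.28 for the 10 genes.

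Among 13 genes of the receptor machinery 12 were tested, of which 1 was higher and 0 lower at an unadjusted P-value under 0.05, with a median difference of 0.048. *Stip1*, a co-chaperone that links HSP70 and HSP90, had a difference of 0.31 (standard error 0.12, P-value = 0.0162, adjusted P-value = 0.275), positive on 6 of 6 slides. *Ncoa1*, a coactivator, was at -0.15 (P-value = 0.109), *Fkbp4*, the co-chaperone that counteracts FKBP51, at 0.15 (P-value = 0.125) and *Hsp90aa1* at 0.20 (P-value = 0.208). The receptor gene *Nr3c1*, named after its value was seen, averaged -0.084 ± 0.41 on the Norm arrays and -0.081 ± 0.45 on the Hypox arrays (log2 ratio, SD), a difference of 0.0034 (standard error 0.16, P-value = 0.984).

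Of 20 other genes commonly cited as raised by glucocorticoids, 18 were tested and 4 were higher, 0 lower, with a median difference of 0.071. *Angptl4*, a lipoprotein lipase inhibitor, averaged -0.17 ± 0.33 on the Norm arrays and 0.49 ± 0.51 on the Hypox arrays (log2 ratio, SD), a difference of 0.66 (standard error 0.16, P-value = 0.000321, adjusted P-value = 0.0619). *Ddit4* had a difference of 0.53 (standard error 0.15, P-value = 0.00147, adjusted P-value = 0.117) and *Errfi1*, an inhibitor of EGF receptor signalling, of 0.42 (standard error 0.14, P-value = 0.00462, adjusted P-value = 0.194). *Foxo1*, a transcription factor of muscle atrophy genes, was at 0.23 (P-value = 0.0437). The other 14 did not pass, and after adjustment 0 of the 18 did.

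**Figure D5:**
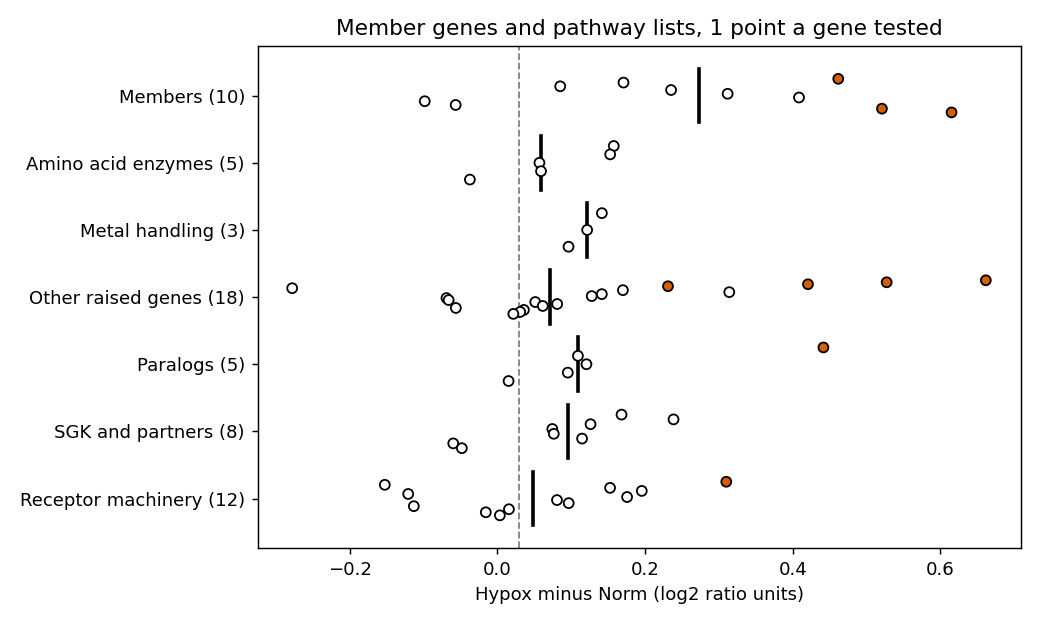
Difference between Hypox and Norm (x axis, log2 ratio units) for the 10 members and the tested genes of 6 pathway lists, with 1 point for each gene, filled where the unadjusted P-value was under 0.05, a black line at the median of each list and a dashed line at the median of all genes tested, 0.029. The median of the members, 0.27, lies above those of the lists, and all filled points are positive.

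Of the 8 tested SGK kinases and partners 0 passed, with a median of 0.096. The smallest P-values were those of *Mlst8*, a subunit of both mTOR complexes (0.17, P-value = 0.104), *Sgk3*, a paralog of *Sgk1* (0.24, P-value = 0.187), *Mapkap1*, a subunit of mTORC2 (0.13, P-value = 0.232), and *Nedd4l*, a ubiquitin ligase that SGK1 phosphorylates (0.074, P-value = 0.254). Of the 5 tested paralogs of members 1 passed: *Klf10*, a relative of *Klf9* and *Klf15*, had a difference of 0.44 (standard error 0.12, P-value = 0.00115, adjusted P-value = 0.105) that was positive on 6 of 6 slides. *Tsc22d4* was at 0.11 (P-value = 0.254), *Tsc22d1* at 0.12 (P-value = 0.399) and *Klf13* at 0.095 (P-value = 0.410).

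Of 7 genes of metal handling 3 were tested and 0 passed. *Mtf1*, the zinc-sensing factor, was at 0.14 (P-value = 0.131), *Slc30a1*, a zinc exporter, at 0.12 (P-value = 0.144), and *Mt3*, a metallothionein known from brain, at 0.096 (P-value = 0.274). Of 5 tested enzymes of amino acid breakdown linked to KLF15 0 passed, with *Prodh*, proline dehydrogenase, at 0.16 (P-value = 0.151), *Gpt*, alanine aminotransferase, at 0.15 (P-value = 0.261), *Bckdhb* at 0.057 (P-value = 0.588) and *Bckdha* at 0.059 (P-value = 0.687). Over all 51 genes tested in these lists 6 were higher and 0 lower at an unadjusted P-value under 0.05, 0 after adjustment, with a median difference of 0.095. These counts stand beside the 7.17% of all genes that were higher and the 5.07% that were lower at that threshold.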

How the data were processed

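The 24 arrays were 2-colour Agilent mouse arrays. The files deposited by the authors hold spot intensity values from Agilent Feature Extraction 10.7.3.1 (per the submitters' processing notes), not normalized between arrays, and a table of log2 values. The authors' log2 values correlated with the log2 Cy5 signal of the same array at 0.953 to 0.998, so they follow the Cy5 channel, but their exact scaling and centring stay unknown. Groups were taken from the sample titles. The descriptions of all samples put the mouse in Cy5 and the pool in Cy3, but the dye labels of Hypox replicates 5 to 9 name other dyes. The descriptions were followed.

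Control spots and 7260 flagged readings were left out. Background was corrected on the mean signals with normexp (offset 50), the log2 ratio (Cy5 over Cy3) was loess-normalized within each array, and replicate spots were averaged. Gene names came from a RefSeq accession for 27235 of the 55681 probes, from a symbol for 3581 and from a synonym for 565, and the others stayed unnamed. Probes with a Cy5 signal averaging over 2 times the local background and a value on at least 20 arrays were kept (14311), and the brightest stood for its gene (9138 genes). On 9.42% to 37.3% of the spots of a Norm array and 12.0% to 37.8% of a Hypox array the Cy5 signal was well above background, which limits the precision of dim genes. No spot of the member probes was saturated.

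Hypox was tested against Norm with limma 3.58.1 in R 4.3.3, without a block and with Benjamini-Hochberg adjustment over all genes. Correlations were tested by permutation in Python 3.11.15 with numpy 2.4.6. The scripts were tested on simulated data. Named genes were the 10 members, up to 4 genes with the smallest P-values of each list beside any that passed after adjustment, and the 3 genes most correlated with each member. The members, lists and tests were chosen with earlier results of these data known. Alternatives changed the signals, normalization, filter, test, block and arrays.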

Additional observations from a re-analysis of the deposited data

How the results depend on the processing

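The direction of *Sgk1*, *Mt1* and *Mt2* held under all 36 alternative settings, the 24 that left out 1 array included. Changes of the test, the block, the filter or the averaging of probes left these differences as they were. Their direction was thus fixed in those settings, and only the others could have changed it. The adjusted P-value of *Sgk1* passed with the processed signals, the filter on probes well above background, the mean of a gene's probes and slide as a block. It did not pass with median centring (0.85, adjusted P-value = 0.725), the deposited values (0.70, 0.835), Cy5 alone (0.39, 0.214), the methods' t-test (0.46, 0.0755), no filter on dim probes (0.46, 0.0891), the filter on mean signal over mean background (0.46, 0.0504), the replicate block (0.46, 0.0684) or without the 4 arrays highest in lung markers (0.39, 0.250), the filter and the 4 arrays being chosen after the data were seen. With 1 array left out its log2 difference was 0.43 to 0.51. The number of members past adjustment, 1, became 3 with the processed signals or slide as a block and 0 in the other 8 settings named as not passing for *Sgk1*. With 1 array left out it was 0 to 3, with 3 without Hypox replicate 2. Past the unadjusted threshold the count of 3 became 0 with median centring, 4 with the processed signals, 4 with the Cy5 channel alone, 5 with slide as a block and 5 with the replicate block, and 3 to 6 with 1 array left out, 6 of them without Hypox replicate 5 and 5 without Norm replicates 9 or 12 or Hypox replicates 2, 3, 6 or 12. The cause was not tested.

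*Klf15* and *Klf9* changed sign with median centring (0.14 and 0.34), and *Klf9* on the deposited values (0.15). With median centring the median of all genes was 0.25, and relative to it *Klf15* lay at -0.11 and *Klf9* at 0.085. The count of pathway list genes past the unadjusted threshold, 6, became 12 with the processed signals and 2 with median centring. Over all genes the unadjusted counts were 655 higher and 463 lower, against 32 and 0 with median centring, 368 and 364 with the Cy5 channel alone, and 276 and 212 on the deposited values. The 6 correlated pairs became 26 with the processed signals, 90 with median centring, 1 with the Cy5 channel alone, 2 with slide as a block, 0 with slide means removed and 0 without the 2 farthest arrays, and 1 to 12 with 1 array left out, with 12 without Norm replicate 5 and 1 without Hypox replicates 1, 2, 3, 4, 6, 8, 10 or 11.

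Replicate numbers were shared between groups, but same-numbered arrays correlated at -0.20 to 0.52 in their deviations, above 0.1 in 3 of 12 pairs, and 2 of 12 Norm arrays correlated best with their own number, so the numbers were not taken as pairs. With the replicate block 18 genes in all passed after adjustment against 31 without.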
